A study of Mus musculus with 12 samples.

Results

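Ppp2r2c, with the other genes of the B55 family of protein phosphatase 2A (PP2A) regulatory subunits, Ppp2r2a, Ppp2r2b and Ppp2r2d, was followed on expression arrays of mouse embryonic stem (ES) cells after knockdown (KD) of chromatin regulators. The genes were found as the probes whose RefSeq accession maps to these symbols, which gave 4 genes among 29839 tested. Ppp2r2c was selected by its higher signal in Mbd3 KD and Chd4 KD, so its values in those KDs are a description and were not tested. The family was then taken whole.

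The cells were E14, an established male ES cell line, grown without feeder cells in serum and LIF. One dish per sample was transfected, with Lipofectamine 2000, with esiRNAs, which are pools of short RNAs cut from a long double-stranded RNA, and RNA was taken 48 h later. The esiRNAs were directed against Mbd3, Chd4, Mbd2, Tet1 or Dnmt1, or against EGFP in the control (EGFP KD), so that control cells also received esiRNA and reagent, and each of the 6 groups had 2 arrays, described by the study as biological replicates. The depletion was acute and partial, in the whole dish, and in such bulk samples fewer cells that express a gene cannot be told apart from less RNA of it per cell. Each of the 12 one-colour Agilent arrays was scaled to its own 75th percentile, and a log2 signal of 0 means a spot as bright as that percentile.

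PP2A is a serine/threonine phosphatase built from a catalytic subunit, a scaffold subunit and 1 of many regulatory B subunits, which decide where the enzyme acts and on which substrates. The B55 family is known for opposing cyclin-dependent kinases at mitotic exit. Ppp2r2a (B55 alpha) and Ppp2r2d (B55 delta) are expressed in most tissues, whereas Ppp2r2b (B55 beta) and Ppp2r2c (B55 gamma) are found mainly in brain. Mbd3, Mbd2 and the ATPase Chd4 are subunits of the NuRD complex, which remodels nucleosomes and removes acetyl groups from histones, with Mbd3 and Mbd2 in alternative forms of it. Dnmt1 maintains cytosine methylation at CpG sites and Tet1 oxidises methylated cytosine.

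The stretch before an annotated start of Ppp2r2c, within the span of the gene, is shown because this was the family member that differed between KDs, beside that of Ppp2r2d, which was not called in any comparison. Both are RefSeq sequences of GRCm38.p6, 250 bases on the plus strand, and capitals mark CG, the letters of a CpG site. The stretch for Ppp2r2c is chr5:36868260-36868509 and that for Ppp2r2d, at the first of 2 annotated starts, is chr7:138846109-138846358.

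Ppp2r2c: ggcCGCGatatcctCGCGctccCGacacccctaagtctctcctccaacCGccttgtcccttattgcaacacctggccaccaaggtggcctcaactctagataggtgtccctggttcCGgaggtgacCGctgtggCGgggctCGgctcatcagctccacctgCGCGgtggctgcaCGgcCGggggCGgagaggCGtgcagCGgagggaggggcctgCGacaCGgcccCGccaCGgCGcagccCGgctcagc

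Ppp2r2d: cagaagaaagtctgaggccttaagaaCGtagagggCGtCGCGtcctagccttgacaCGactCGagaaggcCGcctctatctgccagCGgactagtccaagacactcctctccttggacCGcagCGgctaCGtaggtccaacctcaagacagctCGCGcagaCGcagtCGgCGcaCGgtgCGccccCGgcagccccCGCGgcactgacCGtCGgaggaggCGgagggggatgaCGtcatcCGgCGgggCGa

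The Ppp2r2c stretch held 23 CG and the Ppp2r2d stretch 28. In the window of 300 bases that also takes in the 50 bases after the start, Ppp2r2c had 36 CG and a G+C share of 72.7%. As many CG were found in 6.2% of 32851 annotated promoter windows of that length, whose median was 7. The first Ppp2r2d window had 32 CG, reached by 9.5% of windows, and the second 38, reached by 5%. Both genes thus had CpG-rich starts, and methylation of these stretches was not analysed here.

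Facts of the arrays that bear on every value come first. The 75th percentile lay between 1783.5 and 2445.1, and between 30310 and 37517 of 39429 probes were well above background. Of the 3 slides, the first carried replicate 1 of the control, of Mbd3 KD, of Dnmt1 KD and of Mbd2 KD, the second carried replicate 2 of the control with Chd4 KD replicate 1 and both Tet1 KD arrays, and slide 3 carried the other 4 arrays and no control. The targeted mRNAs went against 2 labels. Relative to the control mean, Tet1 (probe A_55_P2122997) stood at -1.81 (log2) on Tet1 KD replicate 2, but at -0.02 on the array labelled as replicate 1 of Tet1 KD, and at -1.78 on the one labelled as replicate 1 of Mbd2 KD. For Mbd2 (probe A_66_P133043) the value was -1.77 on Mbd2 KD replicate 2, -0.23 on the array labelled as replicate 1 of Mbd2 KD and -1.74 on the one labelled as replicate 1 of Tet1 KD, while a second Mbd2 probe gave -0.07 on both arrays labelled Mbd2 KD. For the B55 genes and for the PP2A genes named at their extremes in Tet1 KD or Mbd2 KD, values are also given without the array labelled replicate 1 of that group.

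Ppp2r2c (NM_172994, GRCm38.p6 chromosome 5, 36866846 to 36955078) was measured by 1 probe, A_51_P461779, which was well above background and not saturated on all 12 arrays. In control (EGFP KD) cells its log2 signal was -1.54 and -1.36, with processed intensities of 785.9 and 744.8. In Mbd3 KD the log2 signal was 0.90 and 0.87, with intensities of 4507 and 3315. In Chd4 KD it was 0.70 and 1.02, with intensities of 3155 and 4953. All 4 arrays of Mbd3 KD and Chd4 KD lay far above both controls, and the values of Mbd3 KD fell inside the range of Chd4 KD. The mean of Mbd3 KD was 0.88 ± 0.02 (SD, n = 2), that of Chd4 KD 0.86 ± 0.23 (SD, n = 2) and that of EGFP KD -1.45 ± 0.13 (SD, n = 2). Relative to EGFP KD these were log2 differences of 2.33 and 2.31, or 5.04-fold and 4.95-fold, and the means of Chd4 KD and Mbd3 KD differed by -0.03. Counted from the largest rise, with falls placed last, Ppp2r2c stood at place 15 of 29839 genes in Mbd3 KD and at place 89 in Chd4 KD. These values chose the gene and carry no test.

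The signal was also compared within slides. These are the same Mbd3 KD and Chd4 KD arrays that chose the gene, so the values are again only a description. Mbd3 KD replicate 1 exceeded the control of its own slide by 2.44 (log2) and Chd4 KD replicate 1 exceeded its own by 2.06. On slide 3, which had no control, Mbd3 KD replicate 2 lay 2.49 and Chd4 KD replicate 2 lay 2.64 above the array labelled Mbd2 KD replicate 2. That array is not a control, and its log2 signal of -1.62 was the lowest of all arrays. Slide 3 therefore gives no difference from control cells. Each of the 4 arrays lay more than 2 log2 units above the array of its own slide used as reference.

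In Dnmt1 KD Ppp2r2c had an intermediate signal. The choice of the gene did not use these arrays, but it did use the same 2 control arrays that they are compared with. Its log2 signal was -0.51 and -0.39, with intensities of 1357 and 1789. Both arrays lay above both controls and below all 4 arrays of Mbd3 KD and Chd4 KD. The log2 fold change over EGFP KD was 1.00 (2-fold, standard error 0.16), with an unadjusted p of 0.00049 and a limma p of 0.29 after Benjamini-Hochberg adjustment across all genes, so it did not pass the threshold of 0.05. Over the alternatives in processing the adjusted p was between 0.24 and 1, and the log2 fold change between 0.69 and 1.09. Within slides, Dnmt1 KD replicate 1 was 1.03 above its control, and Dnmt1 KD replicate 2 was 1.23 above the array labelled Mbd2 KD replicate 2. In Dnmt1 KD limma called 0 of 29839 genes (0%), although 1415 had an unadjusted p under 0.05 (4.74%).

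In Tet1 KD and Mbd2 KD, as labelled, Ppp2r2c was close to the controls. Its log2 signal was -1.56 and -1.16 in Tet1 KD and -1.50 and -1.62 in Mbd2 KD, and both groups overlapped EGFP KD. The log2 fold changes were 0.09 and -0.11 (standard error 0.16, limma adjusted p = 1 for both). Without the arrays labelled replicate 1 they were 0.29 in Tet1 KD (limma adjusted p = 1) and -0.17 in Mbd2 KD (limma adjusted p = 0.81). In the order of group means, Mbd3 KD and Chd4 KD came first and overlapped each other, Dnmt1 KD followed and overlapped no other group, and Tet1 KD, EGFP KD and Mbd2 KD came last and overlapped each other.

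**Figure D1:**
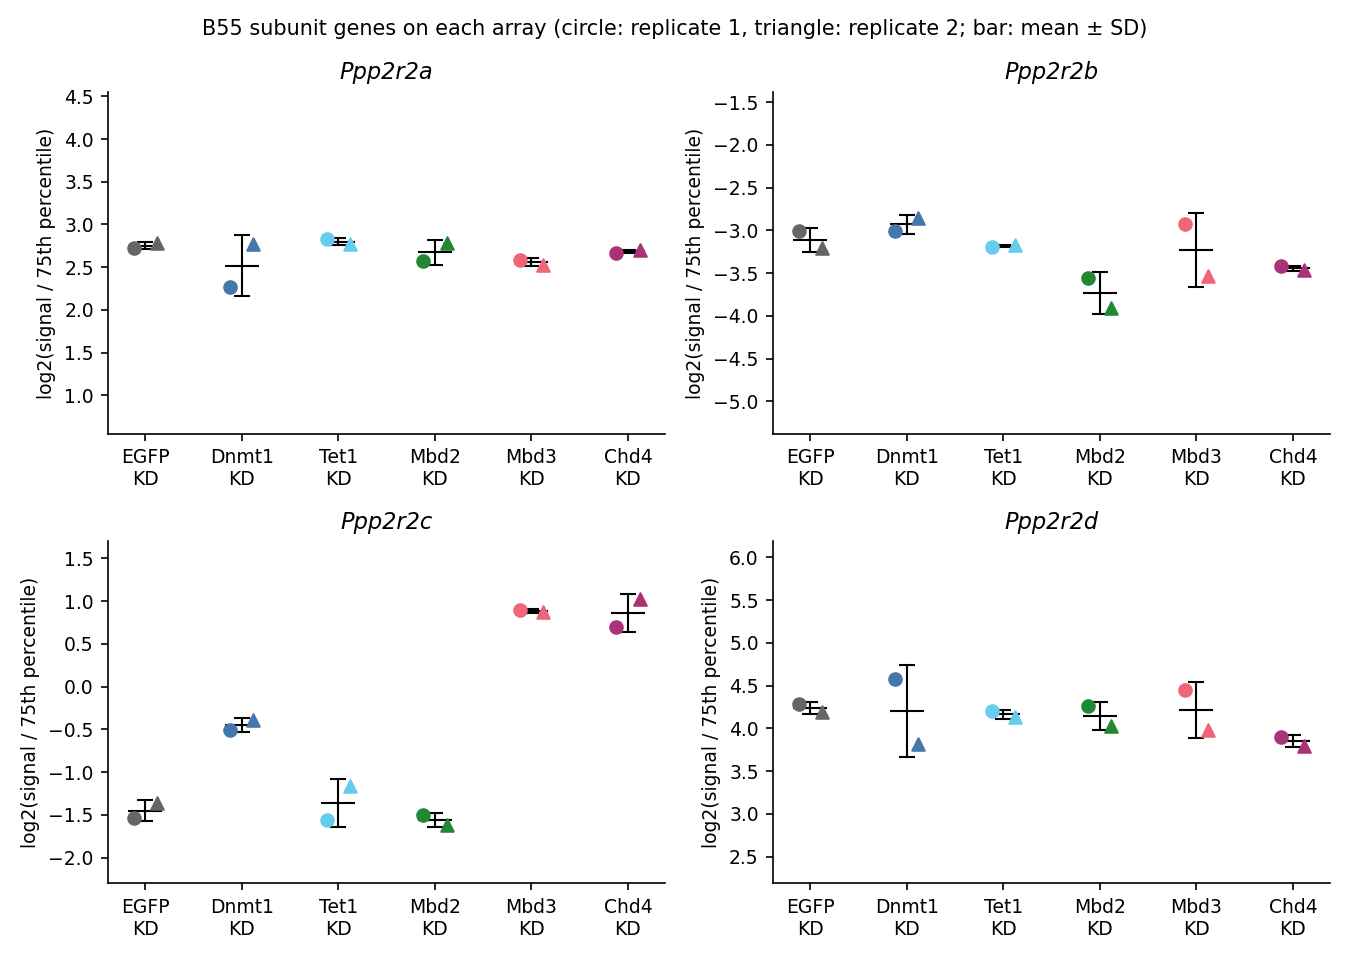
Log2 signal, scaled to the 75th percentile of each array, of Ppp2r2a, Ppp2r2b (brighter probe), Ppp2r2c and Ppp2r2d in the 6 groups, with replicate 1 as a circle, replicate 2 as a triangle and the mean ± SD as a bar; every panel spans the same number of log2 units. Ppp2r2c has means of 0.88 in Mbd3 KD and 0.86 in Chd4 KD against -1.45 in EGFP KD, with Dnmt1 KD between them at -0.45.

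The other B55 genes are described by role, first the members expressed in most tissues. Ppp2r2a (NM_028032, chromosome 14, 67014056 to 67072471) encodes the B55 subunit best known in mitotic exit. Its log2 signal in EGFP KD was 2.72 and 2.78. It was 2.59 and 2.53 in Mbd3 KD, 2.67 and 2.70 in Chd4 KD and 2.57 and 2.78 in Mbd2 KD. In Tet1 KD it was 2.83 and 2.77, and in Dnmt1 KD 2.27 and 2.77. Both arrays of Mbd3 KD and of Chd4 KD lay slightly below the controls, and the other groups overlapped them. With 2 arrays in a group, such a separation can arise without a difference, and its share over all genes was not counted. The same limit holds for the other B55 genes below. The log2 fold change was -0.19 in Mbd3 KD, -0.06 in Chd4 KD, -0.07 in Mbd2 KD, 0.05 in Tet1 KD and -0.23 in Dnmt1 KD (standard error 0.16 in each). None was called, with limma adjusted p between 0.82 and 1. Without the array labelled replicate 1, Tet1 KD gave 0.02 and Mbd2 KD 0.03. The value in Dnmt1 KD rested on replicate 1, since it was 0.03 when that array was left out. Among all genes limma called 0.771% in Mbd3 KD, 3.17% in Chd4 KD and 0% in each of the other 3 KDs.

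Ppp2r2d (NM_026391, chromosome 7, 138846350 to 138883057) encodes the B55 subunit that restrains mitotic entry until its inhibition through the Greatwall kinase. Its log2 signal was 4.29 and 4.19 in EGFP KD and 3.90 and 3.80 in Chd4 KD. It was 4.45 and 3.98 in Mbd3 KD and 4.58 and 3.82 in Dnmt1 KD, where the replicates differed most. It was 4.20 and 4.13 in Tet1 KD and 4.26 and 4.03 in Mbd2 KD. Chd4 KD lay below both controls, and the other groups overlapped them. The log2 fold change in Chd4 KD was -0.39 (standard error 0.26, limma adjusted p = 0.70), and those in the other KDs lay between -0.10 and -0.03. The sign in Mbd3 KD and Dnmt1 KD depended on the replicate. The values were 0.21 and 0.34 when replicate 2 of the KD was left out and -0.27 and -0.43 when replicate 1 was. In both KDs replicate 1 was on slide 1 and replicate 2 on slide 3. The log2 signal was 4.26 to 4.58 on the arrays of slide 1. It was 3.80 to 4.03 on those of slide 3, which had no control, so slide and KD cannot be told apart there. Leaving out the array labelled replicate 1 gave -0.11 in Tet1 KD and -0.22 in Mbd2 KD.

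Ppp2r2b (NM_028392, chromosome 18), the other brain-enriched member, was dim. By its brighter probe, A_51_P220278, the log2 signal was -3.01 and -3.21 in EGFP KD, -2.92 and -3.53 in Mbd3 KD, -3.42 and -3.46 in Chd4 KD and -3.56 and -3.91 in Mbd2 KD. Chd4 KD and Mbd2 KD lay below both controls, and Mbd3 KD lay on both sides of them. The log2 fold change was -0.11 in Mbd3 KD and -0.33 in Chd4 KD, where the adjusted p was 0.93 and 0.68 by limma. In Mbd3 KD it was 0.19 when replicate 2 was left out and -0.42 when replicate 1 was. In Tet1 KD it was -0.07, and -0.06 when the array labelled replicate 1 was left out. In Mbd2 KD, as labelled, it was -0.62 (standard error 0.21), with an unadjusted p of 0.02 and a limma adjusted p of 1, and leaving out the array labelled Mbd2 KD replicate 1 gave -0.80 (limma adjusted p = 0.79). A second probe, A_55_P2130925, was well above background on 7 of 12 arrays and on none of Mbd2 KD, and its log2 signal lay between the floor of -4.86 and -4.32. Ppp2r2b was called in no KD.

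Chd4 KD and Mbd3 KD were also compared directly, without the control arrays, for the 3 genes that were not chosen by their values. The log2 differences, Chd4 KD minus Mbd3 KD, were 0.12 for Ppp2r2a, -0.21 for Ppp2r2b and -0.37 for Ppp2r2d, and 0 of the 3 were called. With each array left out in turn they ranged from 0.09 to 0.15, from -0.52 to 0.09 and from -0.60 to -0.13, and the smallest size for Ppp2r2b and Ppp2r2d came when Mbd3 KD replicate 1 was left out and the greatest when replicate 2 was. Mbd3 KD minus Mbd2 KD, as labelled, gave -0.11 for Ppp2r2a, 0.51 for Ppp2r2b and 0.07 for Ppp2r2d, and again 0 of 3 were called. Leaving out the array labelled replicate 1 of Mbd2 KD turned these into -0.21, 0.69 and 0.19. Over all arrays left out in turn, Ppp2r2a ranged from -0.21 to -0.01. Ppp2r2b ranged from 0.21 to 0.81 and Ppp2r2d from -0.17 to 0.31, with the lower value in the absence of Mbd3 KD replicate 1 and the higher in the absence of replicate 2. Among all genes 1.46% were called by limma between Chd4 KD and Mbd3 KD and 0.486% between Mbd3 KD and Mbd2 KD, and 10% and 6.88% had an unadjusted p under 0.05. At that unadjusted threshold 0 of the 3 genes passed between Chd4 KD and Mbd3 KD and 1 of 3, Ppp2r2b, between Mbd3 KD and Mbd2 KD.

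The wider phosphatase was taken as a list of 37 genes for the subunits of PP2A, its assembly factors, its inhibitors and related catalytic subunits. Of these 36 were tested, and Cip2a was not, since no group had its probe well above background on both arrays. Apart from Ppp2r2c, limma called 0 of 35 in each KD. At an unadjusted p under 0.05, 1 of 35 passed in Mbd3 KD, against 9.67% of all genes, and 1 of 35 in Chd4 KD, against 12.8%. In Mbd2 KD 1 of 35 passed, against 2.05%, and in Tet1 KD 0 of 35, against 2.83% (843 of all genes). In Dnmt1 KD 0 of 35 passed. The median log2 fold change over the 35 genes was -0.03 in Mbd3 KD, where that of all genes was -0.04, and -0.08 in Chd4 KD, where it was 0.

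Among the core subunits, the catalytic genes Ppp2ca and Ppp2cb had log2 fold changes of -0.02 and 0.00 in Mbd3 KD and of -0.08 and 0.17 in Chd4 KD. For the scaffold gene Ppp2r1a they were 0.02 and 0.17. The scaffold gene Ppp2r1b had -0.33 and 0.04, and none of these passed the test. In Mbd3 KD the 35 genes lay between -0.56 and 0.57, and in Chd4 KD between -0.65 and 0.61. Ppp2r2c was outside these ranges, but it was chosen by its signal in the same KDs, so its place there is only a description.

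The extremes of the list, apart from Ppp2r2c, did not pass the adjusted threshold either. Ppp2r5d, a B56 regulatory subunit, had the highest values in Mbd3 KD (0.57), Chd4 KD (0.61), Mbd2 KD (0.83) and Dnmt1 KD (0.48), but its controls differed from each other, with log2 signals of 0.99 and 1.95. The signals of Mbd3 KD (1.67 and 2.41) and Chd4 KD (1.85 and 2.31) overlapped those of the controls, Dnmt1 KD (1.95 and 1.95) was level with the higher control, and Mbd2 KD (2.06 and 2.54) lay above both. Without the array labelled replicate 1, the value of Ppp2r5d in Mbd2 KD was 1.07. A second, dimmer probe of Ppp2r5d was well above background on all 12 arrays, and its log2 signal ranged only from -1.28 to -0.74. The values given are those of the brighter probe. Anp32a, which encodes an inhibitor of PP2A, had the lowest value in Chd4 KD, at -0.65 (standard error 0.17, unadjusted p = 0.0066, limma adjusted p = 0.12). Pabir1, another PP2A inhibitor gene, had the lowest in Mbd3 KD, at -0.56 (limma adjusted p = 0.34). Arpp19, whose product inhibits PP2A with B55 once Greatwall has phosphorylated it, was lowest in Tet1 KD at -0.62, where Strip2, a partner of the striatins, was highest at 0.68. Without the array labelled replicate 1 of Tet1 KD these were -0.73 and 0.86 (limma adjusted p = 1 for both). Strip2 was lowest in Dnmt1 KD at -0.54, where its replicates lay on opposite sides of the control mean, at 0.50 and -1.58. The probe that stood for Set was saturated on all 12 arrays, and that for Ppp2r3a was at the floor on all 12.

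**Figure D2:**
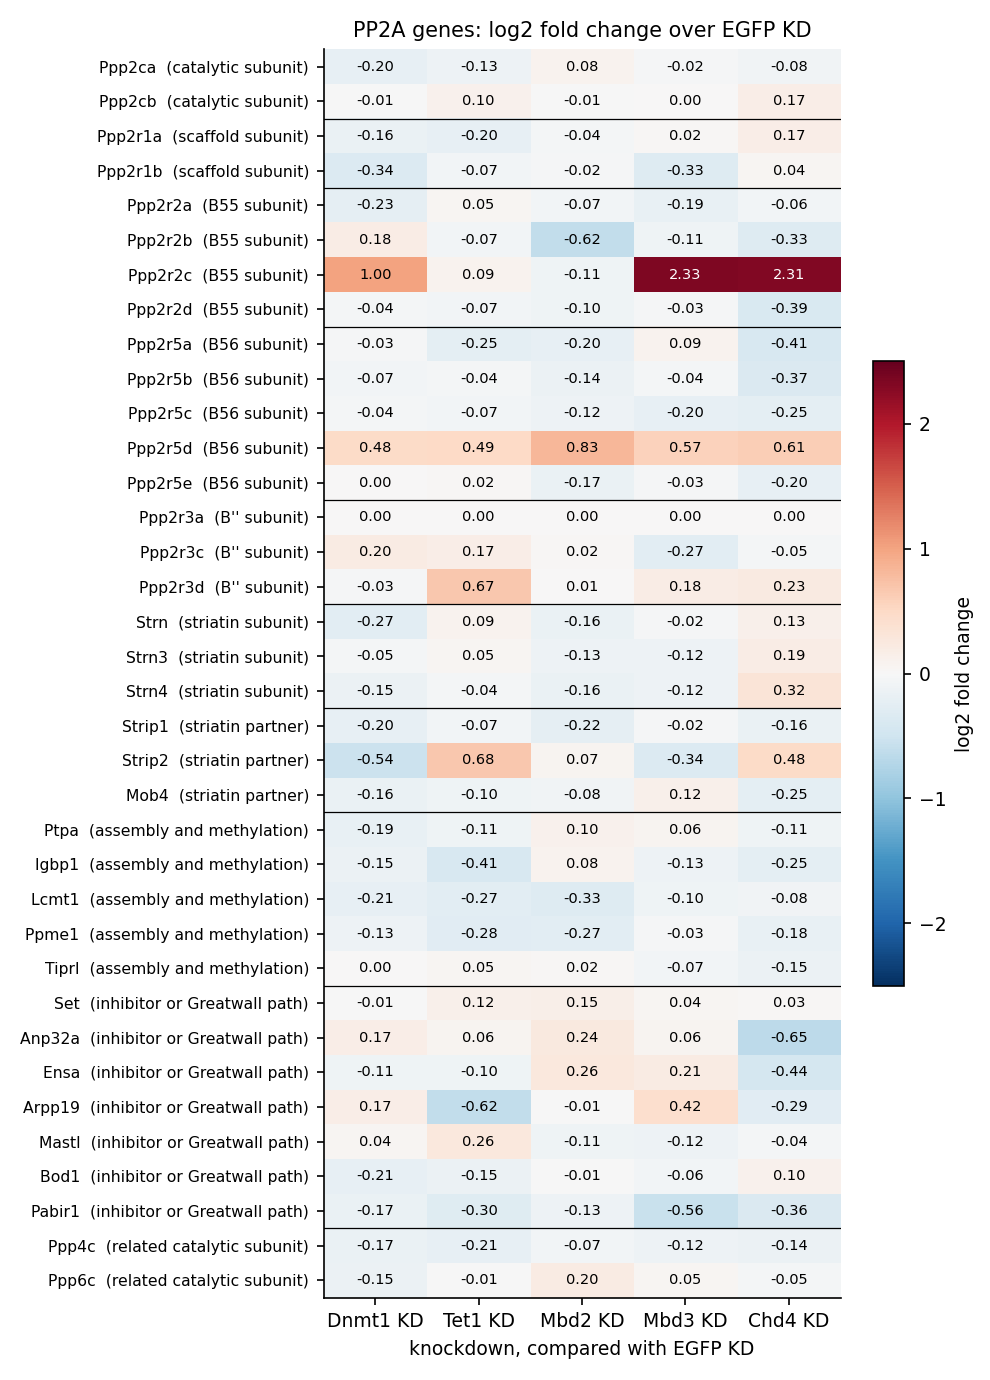
Log2 fold change over EGFP KD (colour and number, limma with 2 arrays per group) of the 36 tested PP2A genes, grouped by role, in the 5 KDs. Ppp2r2c holds the values of 2.33 in Mbd3 KD and 2.31 in Chd4 KD, and the other genes lie between -0.65 and 0.83.

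Genes whose differences from EGFP KD were closest to those of Ppp2r2c were ranked by the root mean square difference over the 10 KD arrays, among 19164 genes with a symbol. The 10 arrays share the 2 controls, and no test was made. The closest was Padi4, which encodes an enzyme that turns arginine in proteins, histones included, into citrulline, at 0.27 log2 units, where the median over genes was 1.59. Mal2, a membrane protein of vesicle transport in epithelial cells, followed at 0.36, then Ttc39a at 0.39 and Adssl1, the muscle form of adenylosuccinate synthase, at 0.42. Rsad2, the interferon-induced antiviral protein viperin, stood at 0.44, Atp6v1c2, a subunit of the proton pump of vesicles, at 0.45, and Serp2 and Gsn, which encodes the actin-severing protein gelsolin, at 0.46. None is a PP2A gene.

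Padi4 shows the pattern on single arrays. Its differences from the EGFP KD mean were 2.33 on both arrays of Mbd3 KD, 1.87 and 2.04 in Chd4 KD and 0.77 and 1.04 in Dnmt1 KD. They were 0.08 and 0.06 in Tet1 KD and 0.12 and 0.40 in Mbd2 KD. The order of the groups was thus that of Ppp2r2c for Mbd3 KD, Chd4 KD and Dnmt1 KD. Padi4 and the others of the 8 were chosen by their likeness on these same arrays, so a like order follows from the choice. The mean differences of the 8 genes ranged from 1.53 to 2.39 in Mbd3 KD, from 1.78 to 2.65 in Chd4 KD and from 0.28 to 1.12 in Dnmt1 KD. Ranked by Pearson's correlation instead, only Padi4 and Rsad2 of the 8 stayed among the first 8, and Rsad2 was at the floor on the arrays where its difference is 0, both controls included. Atp6v1c2 was at or near the floor in EGFP KD too, at log2 signals of -4.86 and -4.78, so the differences of both genes depend on the floor.

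**Figure D3:**
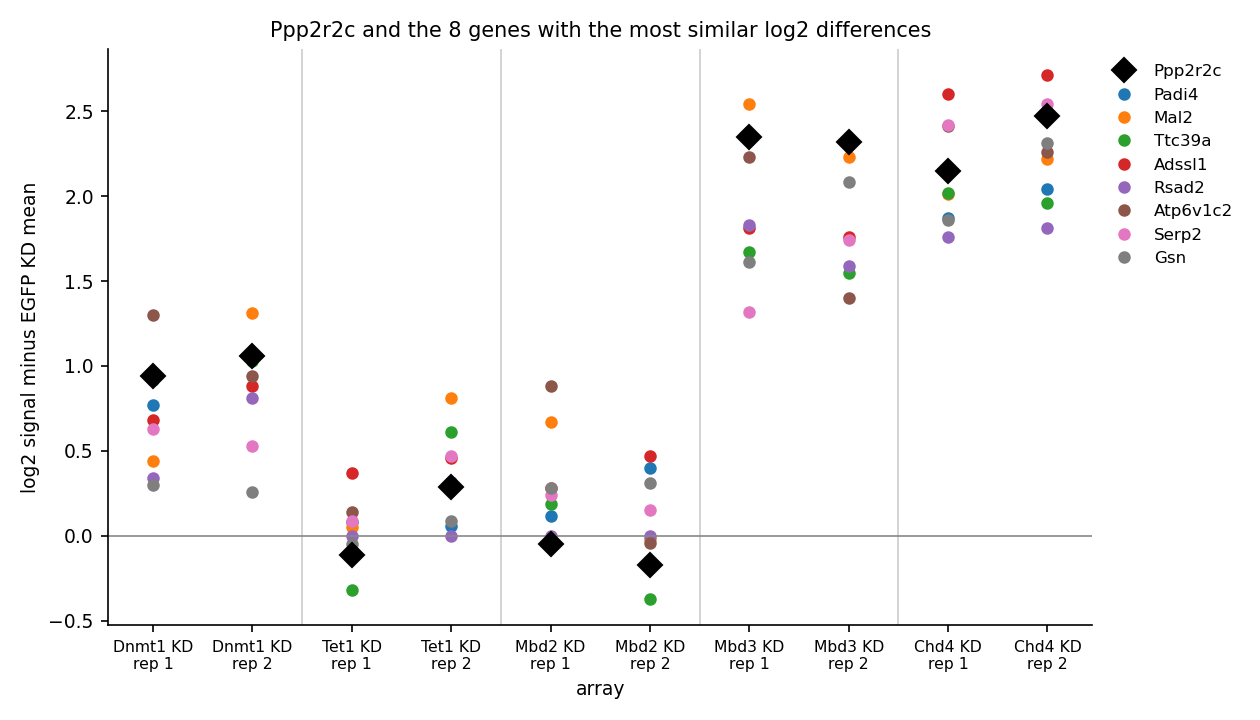
Log2 signal minus the EGFP KD mean on each of the 10 KD arrays for Ppp2r2c (black diamonds) and the 8 genes with the smallest root mean square difference from it (coloured circles). All 9 genes lie at or above 1.32 on the arrays of Mbd3 KD and Chd4 KD and at or below 0.88 on those of Tet1 KD and Mbd2 KD.

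The genes beside Ppp2r2c on chromosome 5 were examined as the 2 tested protein-coding genes on each side in the RefSeq table, with distances between lower end coordinates. Man2b2, an alpha-mannosidase gene 60 kb to the lower side, had log2 signals of -4.73 and -4.17 in EGFP KD, close to the floor. Its signals were -4.02 and -3.47 in Mbd3 KD and -3.34 and -3.13 in Chd4 KD, above the controls on all 4 arrays. Both arrays labelled Tet1 KD (-3.95 and -3.98) and both labelled Mbd2 KD (-4.11 and -4.15) lay above the controls too. The share of all genes with such separations was not counted. The log2 fold changes in Mbd3 KD and Chd4 KD were 0.71 (standard error 0.26, limma adjusted p = 0.42) and 1.21 (standard error 0.26, limma adjusted p = 0.065), and neither was called. Jakmip1, a gene for a microtubule-binding protein 159 kb to the upper side, had 0.58 and 0.69 (limma adjusted p = 0.79 and 0.59). Wfs1, which encodes wolframin of the endoplasmic reticulum, lay 99.3 kb to the upper side and had 0.03 and 0.09. Mrfap1, 72 kb to the lower side, had -0.08 and -0.01. In Tet1 KD, as labelled, Jakmip1 had 0.59, with its replicates 0.05 and 1.14 above the control mean. The 4 neighbours were called in 0 of the 5 KDs.

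**Figure D4:**
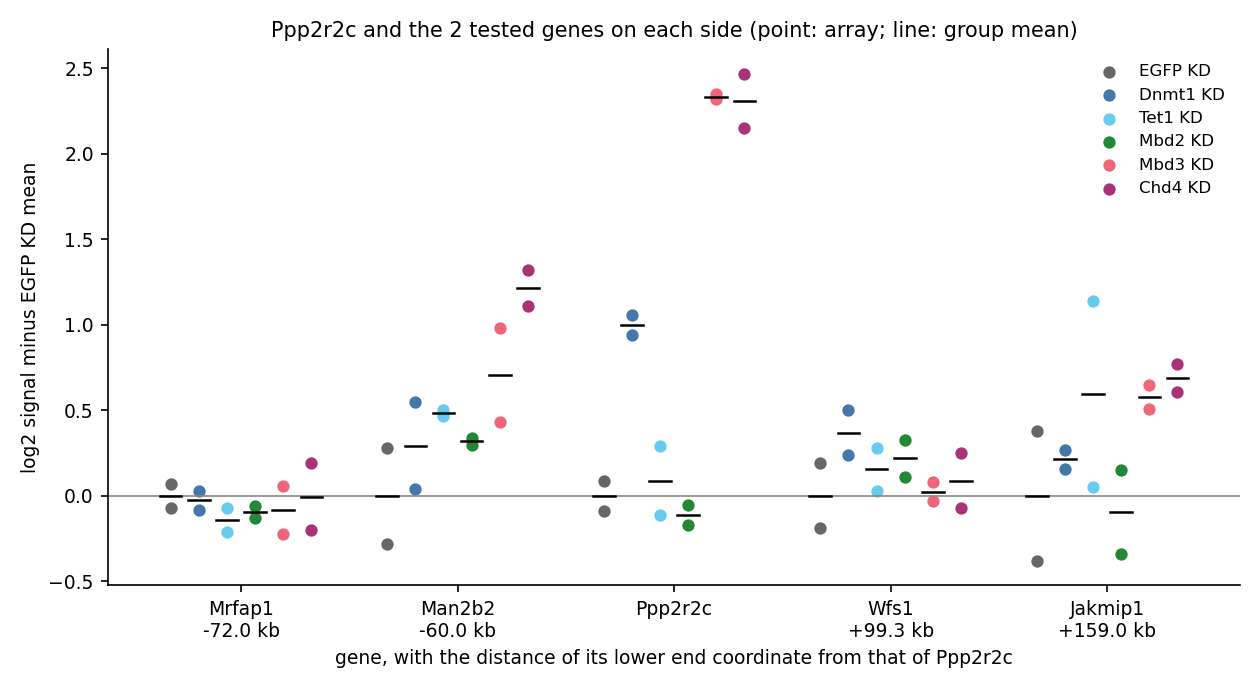
Log2 signal minus the EGFP KD mean for Ppp2r2c and the 2 tested protein-coding genes on each side of it, in chromosomal order, with a point for each array and a line for each group mean. The means of Ppp2r2c are 2.33 in Mbd3 KD and 2.31 in Chd4 KD, and the highest mean of a neighbour is 1.21, for Man2b2 in Chd4 KD.

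Marker genes of other cell types were measured beside Ppp2r2c. The labelled cell type was checked first, and the 8 ES cell markers had a summed level (scaled signal, where 1 is the 75th percentile) of 117 to 145 in EGFP KD, 117 to 159 in Mbd3 KD and 121 to 136 in Chd4 KD, with Pou5f1 at a log2 signal of 4.45 to 5.10 over all 12 arrays. The probes of Pou5f1, Zfp42 and Esrrb were saturated on 11 arrays each and that of Dppa5a on 12, so the sums are lower bounds and had limited room to move. The probe for Nanog was at or near the floor, between -4.86 and -3.86, on all arrays. The 10 neuron markers, of interest because Ppp2r2c is a brain gene, summed to 18.5 to 22.8 in EGFP KD, 16.6 to 20.9 in Mbd3 KD and 10.9 to 11.7 in Chd4 KD. The lower sum in Chd4 KD rests mainly on Stmn2 and the neurofilament gene Nefl, the brightest in EGFP KD, with log2 fold changes of -1.11 and -2.72. The other markers lay between -0.33 (Elavl4) and 0.39 (Dcx) there, and the median of the 10 was -0.21. In Mbd3 KD and Chd4 KD 0 of 10 were called higher, while Nefl was called lower in Chd4 KD. The 5 primitive endoderm markers summed to 0.612 to 0.923 in EGFP KD and to 0.926 to 0.953 and 0.885 to 0.984 in the same KDs, with 0 called.

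The summed levels of the trophectoderm and fibroblast lists were higher in the same KDs as Ppp2r2c, and 1 or 2 genes of each list were called higher there. Among all 29839 genes, 143 were called higher and 87 lower in Mbd3 KD, and 584 higher and 362 lower in Chd4 KD. The 7 trophectoderm markers summed to 6.44 to 7.21 in EGFP KD and to 6.18 to 6.57 in Dnmt1 KD, which was not above the control. The sums were 11.1 to 11.2 in Mbd3 KD and 13.7 to 14.5 in Chd4 KD. Of the 7, 1 was called higher in Mbd3 KD (Tfap2c, a transcription factor gene) and 1 lower (Gata3). Gata3 had log2 signals of -3.88 and -4.12 in EGFP KD. It was at the floor of -4.86 on both arrays of Mbd3 KD, and likewise of Dnmt1 KD and Tet1 KD, so its value depends on the floor. In Chd4 KD 2 were called higher (Tfap2c and the keratin gene Krt18). Cdx2, a defining factor, was at the floor on all 4 arrays of these KDs. Tfap2c and Krt18 were the brightest of the list on every array, so the sums rest mainly on them. Their log2 signals in EGFP KD were already 1.83 and 2.15 (Tfap2c) and 1.2 and 1.12 (Krt18). The median log2 fold change of the 7 was 0.37 in Mbd3 KD and 0.27 in Chd4 KD. The 5 tested fibroblast markers of 6 summed to 4.33 to 4.96 in EGFP KD, 6.36 to 6.82 in Dnmt1 KD, 8.98 to 9.18 in Mbd3 KD and 8.99 to 11.6 in Chd4 KD. Thy1, the brightest of them, had log2 signals of 1.69 and 1.80 in EGFP KD, 3.0 and 3.05 in Mbd3 KD and 3.32 and 3.01 in Chd4 KD. The median log2 fold change of the 5 was -0.23 in Mbd3 KD and -0.01 in Chd4 KD. Lum, Col3a1 and Col1a2 had values of -1.0, -0.57 and -0.23 in Mbd3 KD and of -1.07, -0.74 and -0.01 in Chd4 KD, with none called. Thy1, a surface protein gene, was called higher in both KDs and Col1a1 in Chd4 KD, with Col1a1 at log2 signals of -4.01 and -4.20 in Mbd3 KD and of -4.29 and -4.40 in EGFP KD. The part of such cells in the signal of Ppp2r2c was not tested.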

How the data were processed

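RNA of E14 ES cells was measured on 12 arrays, 2 for each of 6 groups, taken from the sample labels. The authors labelled cRNA with Cy3, hybridised Agilent 4x44K arrays and quantified spots with Feature Extraction 10.7.1.1, a version given in the submitters' processing notes. In the deposited scanner files each spot has a processed intensity, from which that software removed background and which carries no scaling between arrays. A table of log2 values for 10 KD arrays, deposited beside them, matched the log2 of a ratio of quantile-normalized log2 median signals over the EGFP KD mean (r between 0.999 and 1 over 5192 accessions), with column medians between -0.006 and 0.004. It is therefore compressed, and it holds 1 of the B55 genes, Ppp2r2c. It served as an alternative.

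Of 43020 spots that are not controls, 92 to 306 per array carried an outlier mark and were left out of that array. After division by the 75th percentile of its array, a signal below 0.0344 (log2 -4.86) was raised to that floor, which is the lowest scaled signal marked well above background on the array where this minimum was highest. Log2 values were averaged over the spots of a probe. A probe entered when some group had it well above background on both arrays, and each gene was represented by its probe of highest mean. Accessions were named through RefSeq genes of GRCm38.p6, with a match for 71.4% of spots. The promoter table held no entry used here for Ppp2r2a.

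The 6 groups entered 1 linear model in limma 3.58.1 under R 4.3.3 (lmFit and eBayes) and p-values were adjusted by Benjamini-Hochberg over 29839 genes, with a threshold of 0.05. The steps were tested on simulated data. The genes named are the B55 genes, the targeted genes, the list genes called and those with the largest rise and fall in each KD, the 8 genes most like Ppp2r2c and its 2 neighbours on each side. Core subunits, Set, Ppp2r3a and single markers were named after their values were seen. The members and lists were chosen with earlier results of these data known. Alternatives were quantile normalization, normexp (offset 50, on the median signal, since the files hold no mean signal), 2 filters on dim probes, other choices of probe, replicate or slide as a block, values within slides, a trended and robust variance prior, only the arrays of a comparison, an unadjusted threshold and each array left out. The number of arrays limits the precision.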

Additional observations from a re-analysis of the deposited data

How the results depend on the processing

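Under no alternative did a B55 gene other than Ppp2r2c pass the adjusted threshold, nor Ppp2r2c in Dnmt1 KD, Tet1 KD or Mbd2 KD. The log2 difference of Ppp2r2c was smaller after normexp, at 1.88 in Mbd3 KD and 1.80 in Chd4 KD, and in the deposited table turned back to log2 differences, at 2.09 and 2.05, and it was 2.06 in Chd4 KD within slides. With each array left out in turn it ranged from 2.24 to 2.42 in Mbd3 KD, from 2.15 to 2.47 in Chd4 KD, from 0.91 to 1.09 in Dnmt1 KD, from -0.11 to 0.29 in Tet1 KD and from -0.20 to -0.02 in Mbd2 KD. Of the PP2A genes other than Ppp2r2c, the count called was 0 in each KD under each alternative, except at an unadjusted p under 0.05, where it was 1 in each of Mbd3 KD, Chd4 KD and Mbd2 KD. With Pearson's correlation, 2 of the 8 genes most like Ppp2r2c were shared. With the replicate number as a block, the log2 fold change of Ppp2r2c in Dnmt1 KD was 1.00 (limma adjusted p = 0.27) and no call changed. Over 15 pairs of groups, the differences between replicates correlated across genes at -0.04 to 0.77, above 0.1 in 10 pairs. Some groups thus shared a part of their replicate difference. Dnmt1 KD, Mbd3 KD and Mbd2 KD each had replicate 1 on slide 1 and replicate 2 on slide 3. Slide and replicate cannot be told apart for them. The main model held no block for either, so it did not remove this shared part. The deposited table gave no value for Ppp2r2a, Ppp2r2b or Ppp2r2d. The 2 arrays per group, a dim Ppp2r2b and a control-free slide 3 limit the precision, and a small change of these genes was not detectable.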
